A study of Mus musculus with 16 samples.

Results

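The RNAs described here are transcripts of histone modifier and chromatin remodeler genes that were found joined to chromatin DNA in mouse embryonic stem cells (mESCs). They were chosen by name, as protein-coding RNAs (pcRNAs) whose name begins with 1 of 13 family stems: Kdm, Kmt, Setd, Smyd, Hdac, Kat, Brd, Smarc, Chd, Arid, Prdm, Ehmt and Nsd. Of 10736 pcRNA names listed in either library, 107 were members, with 102 in Input, 104 in H3K27me3-RADIP and 99 in both. The gene annotation holds 118 genes that fit the rule, and 11 of them were listed in neither library, among them Ehmt2, Hdac3, Kat2a and Smarca1. An unlisted gene had no pairs past the limit that the authors set, which does not say that its RNA was missing from the cells.

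RADIP joins an RNA to nearby DNA inside fixed nuclei through a bridge adaptor, and an antibody then draws out the sonicated product. The cells were PGK12.1 mESCs, a single line without genetic change or drug treatment, fixed with 1% formaldehyde. H3K27me3-RADIP was selected with an antibody to H3K27me3, the trimethyl mark of repressed genes, and Input was a portion of the ligated material taken through library preparation with no antibody. The labels name 8 libraries for each condition, which the authors merged into 1 table each, so no replicate error can be given. Libraries are not the same as biological replicates here, since the study's methods give fewer of the latter, and the labels do not say which libraries share one. Every comparison is between those merged libraries, not between conditions.

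Histone modifiers add or remove methyl and acetyl groups on histone tails, remodelers slide or evict nucleosomes with the energy of ATP, and reader proteins bind the marked tails. Trimethylation of H3K27 is laid down by the Polycomb repressive complex PRC2 and removed by the demethylases encoded by Kdm6a and Kdm6b. In stem cells several of these enzymes are needed to keep developmental genes silent yet ready for use. Names do not fix function: Setd3 encodes an actin methyltransferase, and many Arid and Prdm genes encode DNA-binding factors. The values below concern the RNAs of these genes and the DNA they lay next to, not the proteins.

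A pair is 1 RNA tag joined to 1 DNA tag, and the tables list only pairs of RNA and 25-kb bin combinations with an adjusted p (q-value) of at most 0.1. Input held 1305107 pairs in all, and H3K27me3-RADIP 1415135. Intervals given here are 95% intervals of counting alone. Pairs came in groups of at least 8 per member and bin in Input and 7 in H3K27me3-RADIP, and 6.56% and 9.99% of members' pairs repeated both tag positions of another pair, so real errors are wider. A pair count cannot tell more RNA from more frequent contact. Of 12 stem cell markers, 7 were listed in Input and 8 in H3K27me3-RADIP, Esrrb with 2388 and 2500 pairs. Pou5f1, Nanog, Dppa4 and Tdgf1 were listed in neither. Of 6 feeder fibroblast markers only Col1a1 was listed, with 7 pairs in H3K27me3-RADIP, and none of 3 trophoblast markers was. Gata4 and Gata6 (endoderm) and Nes and Pax6 (neural) had between 9 and 41 pairs where listed. Their part in the results was not tested.

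Members held 33718 pairs in Input and 35745 in H3K27me3-RADIP. Their share of all pairs was 2.58% (2.56 to 2.61) and 2.53% (2.50 to 2.55). The difference was -0.058 percentage points (-0.095 to -0.020). It was -0.113 points over pairs with q at most 0.01, and -0.135 points without the 4 members with most pairs. Pairs were spread very unevenly over the genes. Kat6b, Smyd3, Hdac4 and Arid1b together held 42.4% of members' pairs in Input and 46.5% of those in H3K27me3-RADIP. The median number of pairs per member was 99 in Input and 91 in H3K27me3-RADIP, against 33 and 30 for all pcRNAs. Members ranged in gene length from 7.22 to 870 kb, and 28 were longer than 100 kb. Long genes had more pairs, with a Spearman correlation of 0.77 in Input and 0.74 in H3K27me3-RADIP across the 102 and 104 genes, which share libraries and are not independent.

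Kat6b, which encodes a MYST acetyltransferase of histone H3, lies at chr14:21481434-21672478 on the plus strand (mm10). Its pairs numbered 4299 in Input against 4851 in H3K27me3-RADIP, a log2 ratio of 0.14 (0.08 to 0.20). Over the bins listed in both libraries the ratio turned to -0.08 (-0.15 to -0.02). Smyd3, a SET and MYND domain methyltransferase gene at chr1:178951960-179518041 on the minus strand, had 4140 and 4856 pairs. Smyd3 and Kat6b held the most pairs of all members in both libraries, and neither differed enough between the libraries to be called. Hdac4, which encodes a class II deacetylase that shuttles between cytoplasm and nucleus, had 3648 and 4349 pairs from chr1:91928779-92195699 on the minus strand. Arid1b, for a DNA-binding subunit of the BAF remodeler, had 2221 and 2548 pairs from chr17:4994332-5347656 on the plus strand. The next members by pairs were Arid5b with 1054 and 1143, and Prdm16 with 746 and 1323. Only Prdm16 of these 6 was called higher.

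The rest of the leading members had close to equal pairs. Chd2, a remodeler gene of the CHD family, had 831 and 811 pairs (Input first, as in all such pairs of values), and its relative Chd6 had 773 and 817. Nsd1, an H3K36 methyltransferase gene, had 736 and 745. Kdm5b, an H3K4 demethylase gene, had 712 and 724. Per kb of gene the order changed. Kat6b led with 22.5 pairs per kb in Input and 25.4 in H3K27me3-RADIP, while Smyd3 had 7.31 and 8.58. Brd2, a BET reader gene of only 10.6 kb, had 11.4 and 19.2 pairs per kb. Kat7, a MYST acetyltransferase gene, had 11.9 and 13.4 pairs per kb, Hdac4 had 13.7 and 16.3, and Kdm5b had 9.48 and 9.64. The median member had 1.87 pairs per kb in Input and 1.69 in H3K27me3-RADIP.

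**Figure D1:**
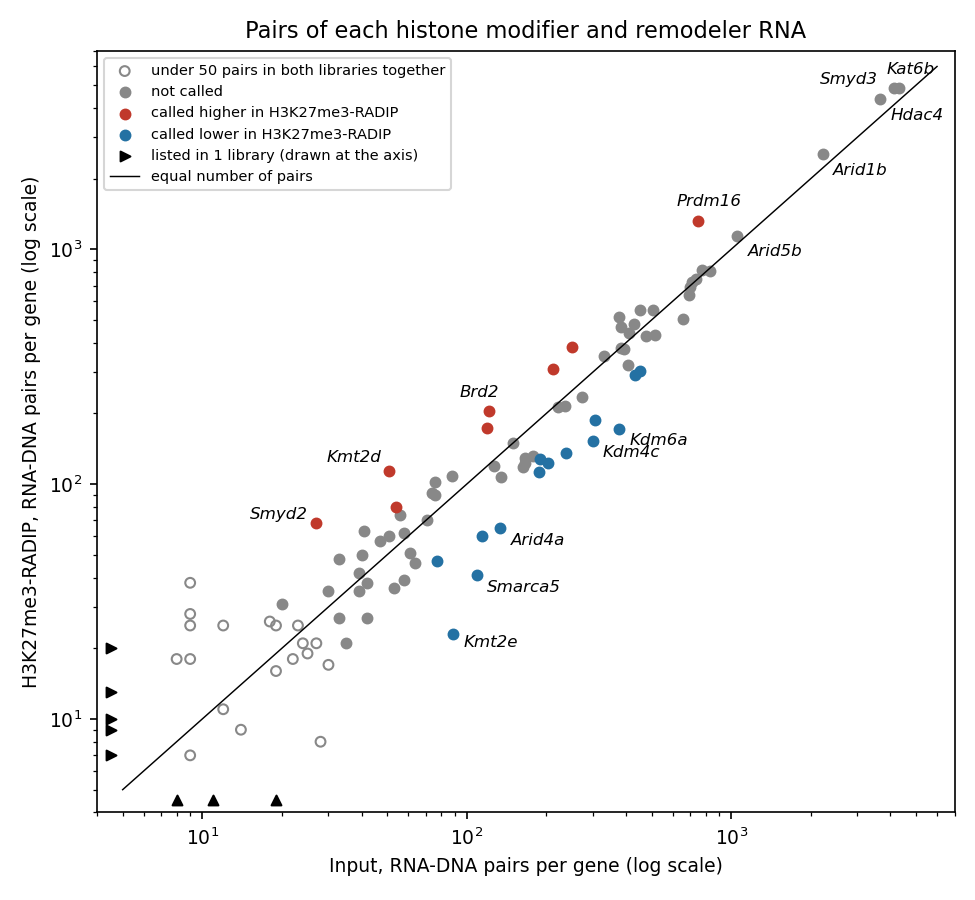
RNA-DNA pairs of each member in Input (horizontal) and H3K27me3-RADIP (vertical), both on log scales, with 1 point per gene and a line of equal numbers. Kat6b and Smyd3 sit at the top with 4140 to 4856 pairs, Kmt2e (89 and 23 pairs) and Smarca5 (109 and 41) lie well below the line, and the 8 members listed in 1 library are drawn at the axes.

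The question of the comparison is which RNAs were more or less often kept by the antibody to H3K27me3. The ratio of pairs was scaled by TMM (trimmed mean of M-values) over all shared pcRNAs. A gene was called when its log2 ratio passed 0.5 in size and its counting interval left out 0. Of the 107 members, 80 were listed in both libraries with at least 50 pairs together, 19 were listed in both with fewer, and 8 in 1 library. Of the 80, 8 were called higher in H3K27me3-RADIP, 14 were called lower and 58 were not called. Over all 5359 pcRNAs with 50 pairs the same rule called 15.1% higher and 16.8% lower. The members' shares were 10% higher, below that background, and 17.5% lower, close to it. At the authors' q limit and under this scaling neither is thus a result about these genes as a class. The members' median log2 ratio was -0.06, against 0.01 for all pcRNAs. Scaling by library totals called 5 of the 80 members higher and 23 lower, beside 11.8% and 20.2% of all pcRNAs, so the members called lower then stood above the background.

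The 8 RNAs called higher came from several families. Over the bins listed in both libraries 3 of these 8 were still called. Kmt2d, which encodes an H3K4 methyltransferase of enhancers, had 51 pairs in Input against 114 in H3K27me3-RADIP, and its log2 ratio was 1.13 (0.64 to 1.63). Smyd2, a methyltransferase gene of the same family as Smyd3, had 27 and 68 pairs, with a log2 ratio of 1.30 (0.64 to 2.00), the highest of the 80. Prdm16, which encodes a zinc finger factor of brown fat and stem cells, had a log2 ratio of 0.79 (0.66 to 0.93). It carried the most pairs of the genes called higher. Brd2 had 121 and 204 pairs, with a log2 ratio of 0.72 (0.39 to 1.06). Setd3 had 249 and 384 pairs, and its log2 ratio was 0.59. Brd7, a PBAF subunit gene, had 119 and 173 pairs, and Brd1, for a scaffold of MYST acetyltransferase complexes, had 212 and 308, each with a log2 ratio of 0.51. Chd4, the main ATPase gene of NuRD, had 54 and 80 pairs, and its interval of 0.02 to 1.06 barely cleared 0. Kmt2b, another H3K4 methyltransferase gene, had 20 and 31 pairs and a log2 ratio of 0.60, which was not called since its interval of -0.26 to 1.49 spanned 0.

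Of the 14 RNAs called lower, 6 came from the 12 Kdm genes with 50 pairs, and 4 Kdm genes were called after correction for GC content. No family was tested against the 16.8% of all pcRNAs. Kdm6a, the X-linked gene of an H3K27 demethylase, had 376 pairs in Input against 172 in H3K27me3-RADIP, with a log2 ratio of -1.16 (-1.43 to -0.90). Kdm4c, an H3K9 demethylase gene, had 299 and 153 pairs and a log2 ratio of -0.999 (-1.29 to -0.71). Kdm1a, for the H3K4 demethylase LSD1, had 114 and 60 pairs, and its log2 ratio was -0.96. The H3K4 demethylase genes Kdm5c, with 187 and 113 pairs, and Kdm5a, with 189 and 128, and the H3K9 demethylase gene Kdm3a, with 77 and 47, completed this group.

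The strongest drop was that of Kmt2e, which encodes a SET domain protein without clear methyltransferase activity. It fell from 89 pairs to 23, and its log2 ratio was -1.98 (-2.71 to -1.31). Smarca5, the ATPase gene of ISWI remodelers, had 109 and 41 pairs and a log2 ratio of -1.44 (-2.00 to -0.91). Part of both falls lay in bins that H3K27me3-RADIP did not list: over the bins listed in both libraries the log2 ratio was -0.75 for Kmt2e, with an interval of -1.55 to 0.03 that took in 0, and -0.88 (-1.46 to -0.31) for Smarca5. Arid4a, for a binding partner of the retinoblastoma protein, had 134 and 65 pairs and a log2 ratio of -1.08. Over the bins listed in both libraries the log2 ratio of Arid4a was -0.63 (-1.10 to -0.16). Its relative Arid4b had 306 and 188. Also called lower were Smarcad1 with 238 and 135 pairs, Kat2b with 202 and 123, and Smarcc1 with 450 and 303. Smarcad1 and Smarcc1 encode a remodeler ATPase and a BAF core subunit, and Kat2b a GNAT acetyltransferase.

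The pair ratio moved with the base composition of the gene. Over the 80 members the Spearman correlation of log2 ratio with gene-body GC was 0.59 (Pearson 0.65), and over 5354 pcRNAs it was 0.50 (Pearson 0.46). These are correlations across genes of the same pair of libraries, not over replicates. Gene bodies of members called lower had 35.2% to 43.5% GC with a median of 39.4%, and those called higher had 42.2% to 55.2% with a median of 49.7%. Of 12 members under 40% GC, 8 were called lower and 0 higher, and their median log2 ratio was -0.67. Of 753 pcRNAs in that class 52.1% were called lower. Of 12 members with at least 50% GC, 4 were called higher and 0 lower, and the median was 0.55. Of 845 such pcRNAs 32.2% were called higher, so the members' count lay close to the background. All pcRNAs showed the same order, with medians of -0.55 and 0.37 in those classes. The class limits were chosen after the values were seen. The log2 ratio had little relation to gene length among members, with a Spearman correlation of -0.13.

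When each log2 ratio was set against the median of all pcRNAs within classes of 2 points of GC, 4 members were called higher and 11 lower. The background was then 11.5% higher and 12.8% lower over 5354 pcRNAs. The 4 called higher, Smyd2, Kmt2d, Setd3 and Brd7, had been called higher before. Of the 11 called lower, 7 had been called before: Kmt2e, Smarca5, Arid4a, Kdm1a, Kat2b, Kdm5c and Kdm4c. Kdm6a, with the lowest gene-body GC of all members (35.2%), moved from -1.16 to -0.12. Prdm16 moved from 0.79 to 0.46, and Brd2 from 0.72 to 0.30. Smarca5 moved from -1.44 to -0.68, Kdm4c from -0.999 to -0.53 and Kmt2e from -1.98 to -1.52, and all of these were still called.

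**Figure D2:**
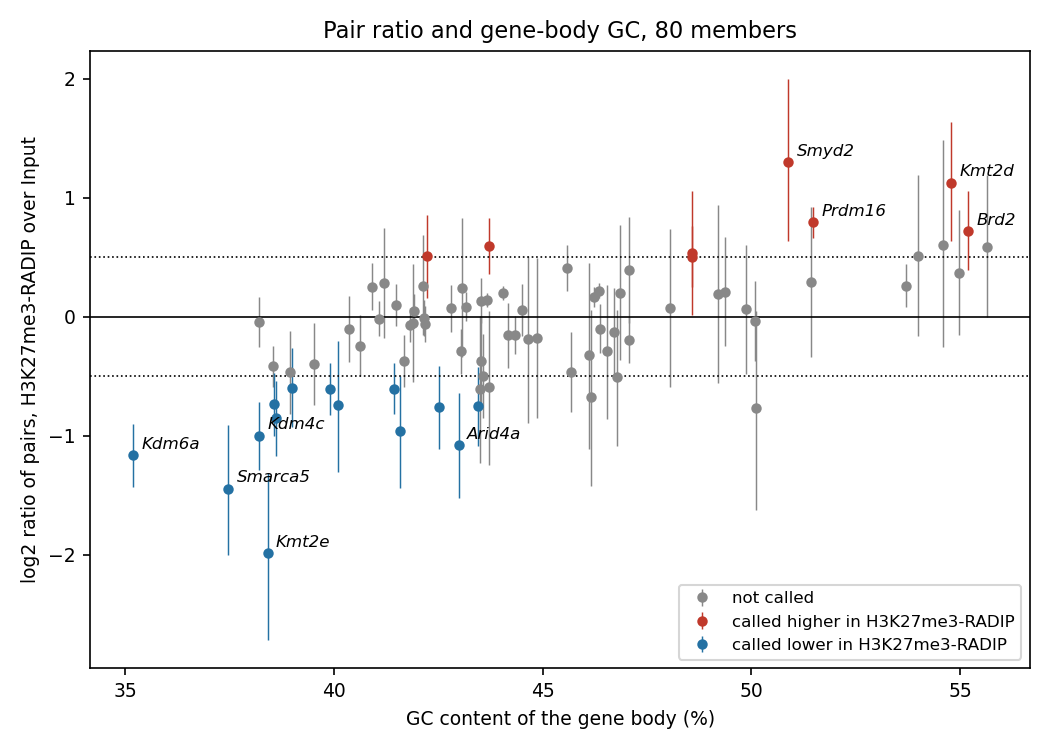
The log2 ratio of pairs, H3K27me3-RADIP over Input, against the GC content of the gene body for the 80 members with at least 50 pairs, with bars for the 95% counting interval and dotted lines at 0.5 on either side of 0. The genes called lower lie at the left, from 35.2% to 43.5% GC, and those called higher lie from 42.2% to 55.2%.

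The DNA side differed in base composition also within the same places. Of members' DNA tags, 44.3% of bases were G or C in Input and 47.9% in H3K27me3-RADIP. For RNA tags the values were 46.3% in both libraries. Within RNA and bin combinations that both libraries listed, the DNA tags had higher GC in H3K27me3-RADIP for 83 of 99 members, by 2.46 ± 2.78 points (SD over 99 genes). The RNA tags had higher GC for 42 of 99, with a mean difference of -0.29 ± 3.07 points (SD over 99 genes). Tag composition was not computed over all pcRNAs, so these values cannot be read as particular to members. The part of composition in the ratios was not tested.

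To show composition at the start of such genes, promoter sequences are given for the pair of genes with the highest ratios and for Smarca5 and Kdm6a, both called lower, as RefSeq sequence of GRCm38.p6 from 250 bases before to 50 after the start, on the strand of the gene. Capitals mark CG dinucleotides, which read the same on both strands.

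Smyd2, chr1:189922242-189922541, minus strand: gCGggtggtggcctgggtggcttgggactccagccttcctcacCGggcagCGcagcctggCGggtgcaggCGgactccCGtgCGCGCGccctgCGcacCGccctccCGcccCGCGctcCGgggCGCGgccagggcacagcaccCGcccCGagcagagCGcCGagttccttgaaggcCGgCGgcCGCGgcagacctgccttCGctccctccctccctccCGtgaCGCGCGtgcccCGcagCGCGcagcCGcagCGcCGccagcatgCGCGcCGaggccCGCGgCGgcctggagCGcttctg

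Kmt2d, chr15:98871156-98871455, minus strand: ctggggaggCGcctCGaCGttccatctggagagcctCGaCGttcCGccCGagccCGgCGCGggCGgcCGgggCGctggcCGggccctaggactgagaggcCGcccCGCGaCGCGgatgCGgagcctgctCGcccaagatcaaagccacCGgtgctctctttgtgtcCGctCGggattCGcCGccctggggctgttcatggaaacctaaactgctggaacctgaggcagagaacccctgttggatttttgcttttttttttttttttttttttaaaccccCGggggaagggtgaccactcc

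Smarca5, chr8:80739410-80739709, minus strand: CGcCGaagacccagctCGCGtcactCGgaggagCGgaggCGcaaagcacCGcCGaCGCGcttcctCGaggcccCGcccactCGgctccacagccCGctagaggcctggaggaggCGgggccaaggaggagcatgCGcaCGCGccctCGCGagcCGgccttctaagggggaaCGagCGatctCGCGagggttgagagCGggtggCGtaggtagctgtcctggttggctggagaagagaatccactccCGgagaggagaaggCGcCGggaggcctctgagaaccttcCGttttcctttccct

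Kdm6a, chrX:18162325-18162624, plus strand: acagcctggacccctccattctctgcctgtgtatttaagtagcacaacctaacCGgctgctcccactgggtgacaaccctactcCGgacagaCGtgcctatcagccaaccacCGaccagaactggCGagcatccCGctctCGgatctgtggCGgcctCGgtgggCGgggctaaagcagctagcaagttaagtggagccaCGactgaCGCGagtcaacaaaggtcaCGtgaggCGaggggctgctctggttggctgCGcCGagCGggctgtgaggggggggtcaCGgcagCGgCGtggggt

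The promoters of Smyd2 and Kmt2d held 43 and 27 CG dinucleotides and had 79% and 62.7% GC. Those of Smarca5 and Kdm6a held 32 and 21 and had 67.7% and 63% GC. All 4 lay above the median of 7 CG dinucleotides over the 32851 promoters in the table, of which 94.6% held at least 1. The gene bodies of Smyd2 and Kmt2d had 50.9% and 54.8% GC, against 37.5% and 35.2% for Smarca5 and Kdm6a. Few pairs had their DNA tag near a start: 1.09% of members' pairs in Input and 1.10% in H3K27me3-RADIP lay within 2 kb of the 5' end of the RNA's own gene. Smyd2 had 2 and 3 such pairs, Kmt2d had 0 and 3, Smarca5 had 7 and 1, and Kdm6a had 6 and 10.

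Grouped by function, the demethylase lists held genes called lower and none called higher. Of all pcRNAs 16.8% were called lower and 15.1% higher, and no list was tested against these shares. Of 5 H3K4 demethylase genes, 3 were called lower and 0 higher, and their median log2 ratio was -0.67. Of the 7 H3K9 demethylase genes on the list, 5 had 50 pairs, and 2 of them were called lower, with a median of -0.37. Kdm6a was the single H3K27 demethylase gene with 50 pairs. The other one, Kdm6b, had 9 and 25 pairs. Kdm4b, an H3K9 demethylase gene with 53.7% GC, had 450 and 552 pairs and was not called. After GC centring, with 12.8% of all pcRNAs called lower, the calls were 3 of 5 H3K4 demethylase genes (Kdm1a, Kdm1b and Kdm5c), 1 of 5 H3K9 demethylase genes in place of 2, and 0 of 1 H3K27 demethylase gene in place of 1.

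The H3K4 methyltransferase list held 9 genes with 50 pairs, of which Kmt2d was called higher and 7 were not called, and the median log2 ratio was 0.20. The gene called lower, Kmt2e, is on the list by family and not by a known activity. After GC centring Kmt2a was called lower as well. The 4 H3K36 methyltransferase genes Nsd1, Nsd2, Nsd3 and Setd2 gave no call, with a median of -0.06. Ehmt1, for an H3K9 methyltransferase, had 411 and 442 pairs. Setdb1 and Setdb2, of the same function, had under 50 pairs. Both H4K20 methyltransferase genes with 50 pairs, Kmt5a and Kmt5b, were below 0 without a call, at -0.77 and -0.50. Kmt5a was called lower after GC centring.

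Among acetylation genes with 50 pairs, 1 was called. The MYST acetyltransferase genes Kat6a, Kat6b and Kat7 had log2 ratios of 0.10, 0.14 and 0.14 and no call. The GNAT gene Kat2b was called lower at -0.75 (-1.08 to -0.42). No deacetylase gene was called, among 3 of class II and 1 of class I with 50 pairs. The X-linked class I gene Hdac8 had 384 and 468 pairs. Hdac2, also of class I, had 28 and 8 pairs, too few for a call.

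Among remodelers, the BAF and PBAF list had 9 genes with 50 pairs, of which Brd7 was called higher and Smarcc1 lower, with a median log2 ratio of -0.19. Arid1a and Smarca4, the genes of a BAF-defining subunit and of its ATPase, had 394 and 376 pairs and 477 and 426 pairs, without a call. The 7 CHD genes outside NuRD gave no call, and the median was -0.06. Chd7 stood highest of these at 0.41 (0.22 to 0.61), with 378 and 514 pairs. Of the BET genes, Brd2 was called higher, and Brd3 had 150 pairs in each library.

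**Figure D3:**
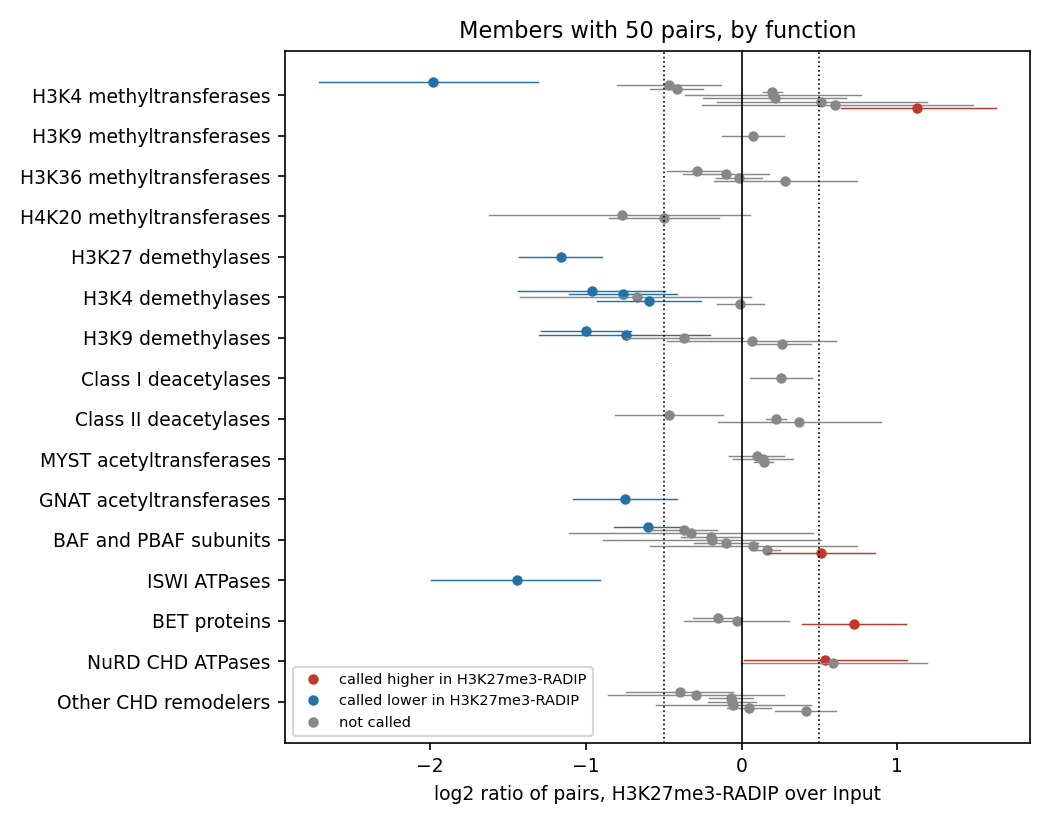
The log2 ratio of pairs, H3K27me3-RADIP over Input, of members with at least 50 pairs, in rows by function, with 1 point per gene, bars for the 95% counting interval and dotted lines at 0.5 on either side of 0. The H3K4 and H3K9 demethylase rows hold 5 genes called lower and none called higher, and the row of H3K4 methyltransferases and their relatives holds Kmt2e at -1.98 and Kmt2d at 1.13.

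By family name, the Kdm genes together had 2949 and 2431 pairs, with 6 of 12 genes called lower, and 4 after GC centring. The Smarc genes had 1491 and 1104 pairs, with 3 of 7 called lower, and 2 after GC centring. The shares over all pcRNAs were 16.8% and, after centring, 12.8%. The Kmt genes had 1194 and 956 pairs, with 1 of 7 called higher and 1 lower. After GC centring 1 Kmt gene was called higher and 3 lower. The Setd genes had 1075 and 1223 pairs, the Brd genes 1417 and 1608 and the Prdm genes 1973 and 2465. Of 7 Brd genes with 50 pairs, 3 were called higher, and 1 after GC centring. The shares of all pcRNAs called higher were 15.1% and, after centring, 11.5%. In the Smyd, Hdac and Kat families 1 gene carried most pairs: Smyd3, Hdac4 and Kat6b, of totals of 4280 and 5012, 4348 and 5112, and 5499 and 6070. The Chd genes had 3095 and 3248 pairs, the Arid genes 4660 and 4805, the Nsd genes 1326 and 1269, and Ehmt1 stood alone in its family.

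Members' RNAs were joined to DNA farther along the chromosome in H3K27me3-RADIP than in Input. All members' pairs in Input, and all but 22 in H3K27me3-RADIP, were in cis, that is, on the chromosome of the gene. The median distance between RNA tag and DNA tag was 64.0 kb in Input against 114 kb in H3K27me3-RADIP, with quartiles of 13.3 and 257 kb, and of 23.6 and 404 kb. Pairs over 100 kb made up 42.2% (41.7 to 42.8) of cis pairs in Input and 52.5% (51.9 to 53.0) in H3K27me3-RADIP. The shares differed by 10.2 points (9.49 to 10.96). For all pcRNAs the shares were 36.4% and 43.7%. Pairs over 1 Mb made up 5.42% and 10.6% of members' cis pairs, against 4.48% and 7.04% for all pcRNAs. Most of the members' pairs over 1 Mb came from Kat6b, Smyd3, Hdac4 and Arid1b. With 91 members weighted equally the shares over 100 kb were 14.8% and 19.0%, a difference of 4.24 points. Without Kat6b, Smyd3, Hdac4 and Arid1b the medians were 29.3 and 49.2 kb.

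Gene by gene, 61 members had at least 50 cis pairs in each library, and for 50 of them, or 82.0%, H3K27me3-RADIP had the longer median distance. Over all 3239 such pcRNAs the percentage was 80.5%. The median ratio of the distances was 1.58 for members and 1.42 for all pcRNAs. The members' percentage lay close to that background. The longest median distances in H3K27me3-RADIP were those of Kat6b, which went from 213 kb in Input to 422 kb, and Smyd3, from 299 to 412 kb. Hdac4 went from 199 to 315 kb and Prdm16 from 72.4 to 114 kb. Arid1b, with 182 and 190 kb, hardly moved. The shortest were those of Brd2, with 2.83 and 3.28 kb, Setd1a with 6.09 and 3.42 kb, Hdac5 with 4.72 kb in both, Kdm4a with 4.97 and 5.76 kb, and Kmt2d with 2.28 and 6.68 kb. Setd1a and Hdac5 encode an H3K4 methyltransferase and a class II deacetylase.

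Kat7 showed one of the widest changes, from 21.6 to 76.8 kb, with 25% and 46.6% of its cis pairs over 100 kb. Nsd1 went from 41.1 to 99.5 kb, Kdm5b from 36.8 to 85.0 kb and Arid5b from 56.9 to 113 kb. Across the 61 genes the median distance in H3K27me3-RADIP followed gene length, with a Spearman correlation of 0.74, a description of genes that share the library.

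**Figure D4:**
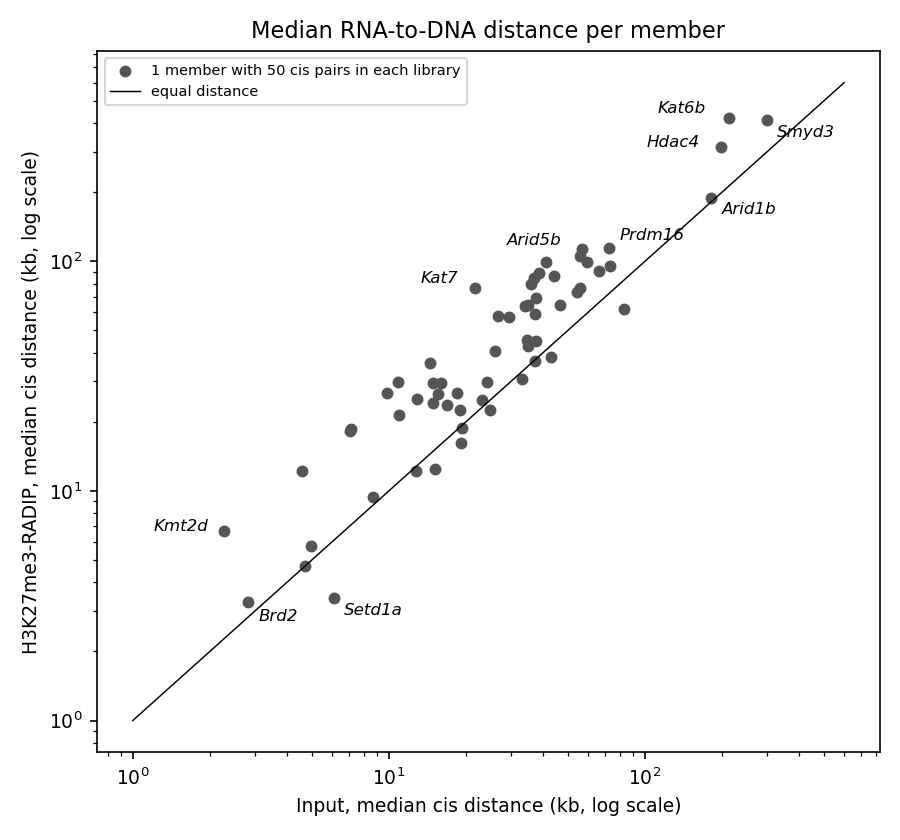
Median distance between RNA and DNA tags of cis pairs in Input (horizontal) and H3K27me3-RADIP (vertical), in kb on log scales, with 1 point for each of the 61 members with at least 50 cis pairs in each library and a line of equal distance. Kat6b, Smyd3 and Hdac4 lie at the top right, and 50 of the 61 lie above the line.

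As the tags moved out, fewer DNA tags lay on the gene itself. The DNA tag was within the RNA's own gene for 51.6% of members' pairs in Input and 40.2% in H3K27me3-RADIP, against 56.9% and 48.6% for all pcRNAs. Among the 61 members with 50 pairs in each library the share was lower in H3K27me3-RADIP for 56. The matching count of genes over all pcRNAs was not made. For Nsd1 it was 48.9% and 30.2%, for Kdm5b 41.0% and 24.9% and for Chd2 59.9% and 39.3%. For Arid1b it was nearly the same, at 47.4% and 46.0%.

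The DNA tags of Kat6b lay more often downstream than upstream in H3K27me3-RADIP, and more often upstream in Input. They were inside the gene for 1503 and 1154 pairs, upstream for 1498 and 1329, and downstream for 1298 and 2355. Beyond 1 Mb and up to 5 Mb from the gene Input listed 546 pairs over 48 bins, against 1156 pairs over 100 bins in H3K27me3-RADIP. Beyond 5 Mb there were 60 pairs over 6 bins and 314 pairs over 35 bins, or 1.40% (1.09 to 1.79) and 6.47% (5.81 to 7.20) of its pairs. Those bins held at least 9 pairs each in Input and at least 8 in H3K27me3-RADIP, where many held 8. The part of this lower limit in the rise was not tested. The bins over 5 Mb away in H3K27me3-RADIP held the calcium channel gene Cacna1d in 3 bins, Colq, Chat, Fezf2, Bmpr1a and, 33.3 Mb from Kat6b, the cardiac myosin genes Myh6 and Myh7, with 8 to 11 pairs per bin. The farthest bin, 46.4 Mb away, held the neurofilament genes Nefl and Nefm and had 8 pairs. The genes named here were picked after the values were seen. Other such bins held genes of varied kinds, among them Acox2, Prkcd and Msra, or no protein-coding gene.

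In H3K27me3-RADIP the pairs of Smyd3 reached farther than those of Kat6b, but not in Input, where the farthest DNA tag lay 24.3 Mb away for Smyd3 and 33.4 Mb for Kat6b. Beyond 5 Mb its pairs numbered 109 over 11 bins in Input, against 604 over 63 bins in H3K27me3-RADIP, or 2.63% (2.19 to 3.17) and 12.4% (11.5 to 13.4). Between 1 and 5 Mb the pairs were 321 and 423. Some of these bins held no protein-coding gene, and the others held genes of varied kinds. Among the latter were Rgs8, a G protein regulator gene, in 2 bins of 8 and 10 pairs, Hlx with 10 pairs at 5.2 Mb, Lhx4 with 9 pairs at 23.2 Mb, Nr5a2 with 8 pairs at 42.1 Mb and Prox1, which had 9 pairs in Input as well as 11 in H3K27me3-RADIP in 1 of its bins. The bin of the potassium channel gene Kcnj10, 6.6 Mb away, had 16 pairs and was not listed in Input. A bin across Ptpn14 and the related gene Smyd2, 10.4 Mb away, had 10 pairs, of which 9 lay within Smyd2. The farthest bin lay 59.7 Mb away with 9 pairs. These genes were picked from the bins after their values were seen. Bins of Smyd3 beyond 5 Mb held at least 9 pairs in Input and at least 8 in H3K27me3-RADIP, where many held 8. The part of that lower limit in the rise was not tested.

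Hdac4 and Arid1b stayed nearer to home. Hdac4 had 176 and 282 pairs between 1 and 5 Mb, and 9 and 36 beyond 5 Mb. The 4 bins of Hdac4 beyond 5 Mb in H3K27me3-RADIP held Nppc, Speg, Fev and Tns1, and its single such bin in Input, 43.7 Mb away, held no protein-coding gene. Arid1b had 120 and 169 pairs between 1 and 5 Mb and 0 listed beyond. Pairs over 1 Mb in length were listed for 9 members in Input and 14 in H3K27me3-RADIP, with no such count made over all pcRNAs.

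**Figure D5:**
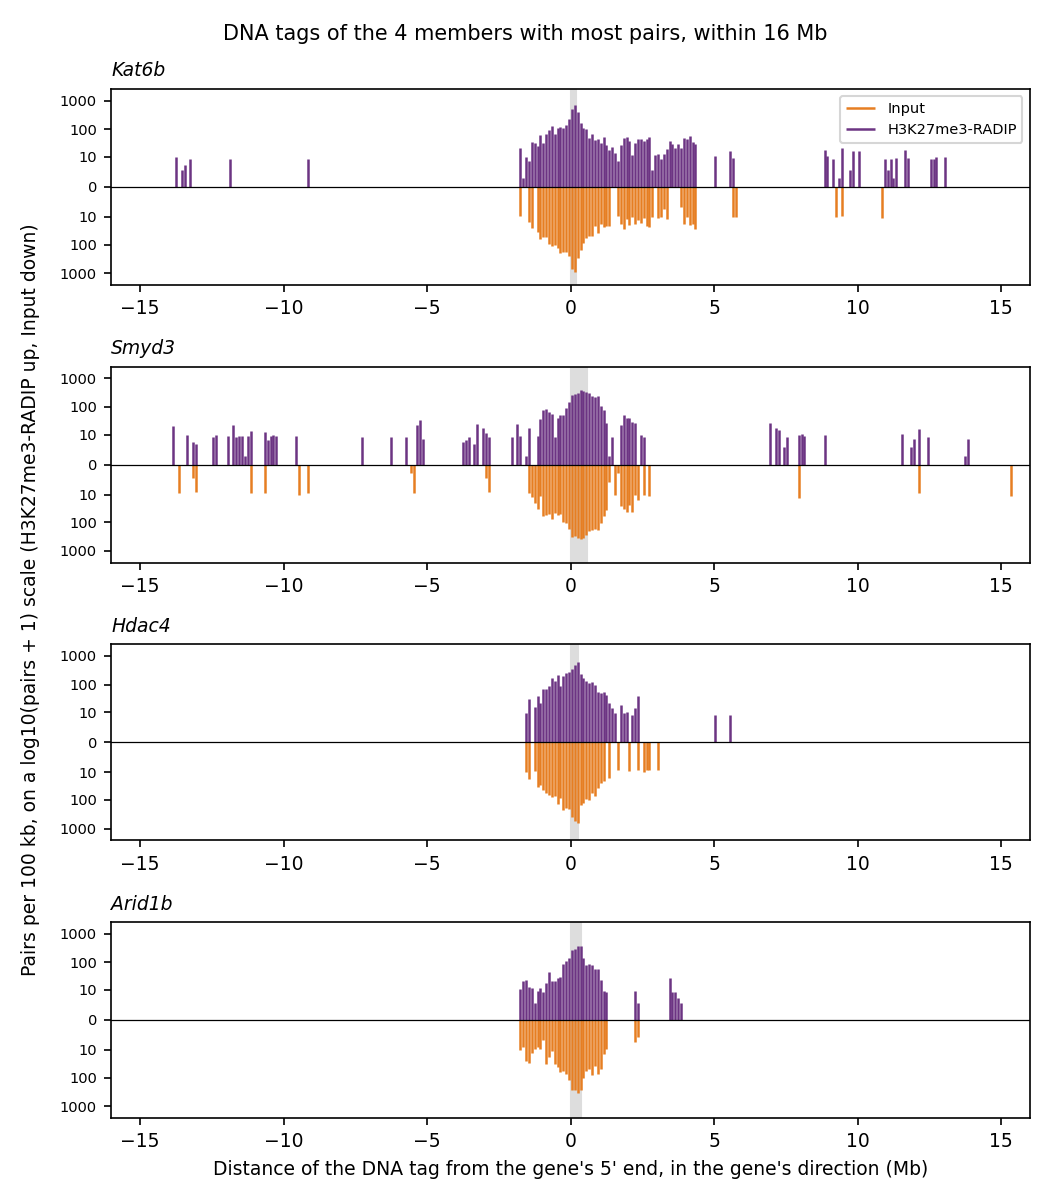
Number of pairs in steps of 100 kb by the distance of the DNA tag from the gene's 5' end, in the direction of the gene, for Kat6b, Smyd3, Hdac4 and Arid1b, with H3K27me3-RADIP drawn up and Input down on a log10(pairs + 1) scale and the gene shaded. All 4 peak at the gene. The Kat6b tags run on downstream to about 5 Mb, and isolated steps beyond 5 Mb are more frequent in H3K27me3-RADIP for Kat6b and Smyd3.

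Bins listed for members overlapped in large part between the libraries. Members had 1302 RNA and bin combinations in Input and 1595 in H3K27me3-RADIP, and 1032 were in both. That was 79.3% (77.0 to 81.4) of the Input combinations and 64.7% (62.3 to 67.0) of those in H3K27me3-RADIP, against 76.7% and 67.1% for all pcRNAs. Of the 99 shared members, 49 had more bins in H3K27me3-RADIP, 31 had equal numbers and 19 had fewer. Kat6b went from 134 to 220 bins with 115 in common, Smyd3 from 129 to 188 with 101, Hdac4 from 104 to 122 with 93 and Arid1b from 86 to 89 with 71. Beyond 1 Mb from the gene, Kat6b shared 36 bins between the libraries and Smyd3 shared 18. A single bin held all pairs of 15 members in Input and of 13 in H3K27me3-RADIP. Counts of genes by their number of bins were not made over all pcRNAs.

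RNA tags of members came mostly from introns: 87.3% (87.0 to 87.7) in Input and 87.6% (87.2 to 87.9) in H3K27me3-RADIP, against 88.9% and 89.6% for all pcRNAs. Coding exons gave 5.72% and 5.87%, 3' UTRs 2.77% and 2.60%, and 5' UTRs 1.09% and 1.02%. Brd2 was unlike the rest, with introns giving 20.7% and 27.5% of its RNA tags. Intronic tags lay farther from their DNA tags, with median cis distances of 70.8 and 128 kb, than 3' UTR tags, with 16.4 and 30.6 kb. On the same strand, 28 members overlap another annotated gene, so some of their tags could be assigned to either. The other gene was protein-coding for Setd1a and Kat14.

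Contacts in trans, with another chromosome, were listed for Kat6b and Smyd3 alone, and in H3K27me3-RADIP alone. Kat6b had 13 such pairs and Smyd3 had 9, and all 22 fell into a single bin, chr11:3150001-3175000, which the annotation places within the gene Sfi1. Other pcRNAs were listed there too. The bin took all 37 trans pairs of pcRNAs in Input, from 4 RNAs, and 261 of 341 in H3K27me3-RADIP, from 23 RNAs. To show where these contacts landed, the DNA tag of Kat6b that was found in 2 pairs and the Smyd3 tag that lies nearest to it are printed here as the plus strand of mm10.

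Kat6b, chr11:3155973-3155997: ggagacataataactaagatgtagg

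Smyd3, chr11:3157370-3157394: agaaaaagacactaggacggaatcc

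Each of the DNA tags of these trans pairs matched the assembled chromosomes exactly 1 time. The authors kept only uniquely mapped tags, so this was close to fixed beforehand. Over RNAs of all classes the bin held 171 trans pairs among 402 in Input, from 9 RNAs. In H3K27me3-RADIP it held 396 among 716, from 28 RNAs.

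Only in H3K27me3-RADIP were listed Hdac11 with 20 pairs, Kmt5c with 13, Prdm13 with 10, Prdm12 with 9 and Kdm4d with 7. Only in Input were listed Kdm7a with 19 pairs, Kat8 with 11 and Smarcd2 with 8. Kdm7a filled 2 bins and each of the others filled 1. Prdm12 and Prdm13 encode factors of the developing nervous system, Hdac11 a small deacetylase and Kmt5c an H4K20 methyltransferase. A listing in 1 library does not show that the gene was without contacts in the other, since combinations above the q-value limit were left out by the authors. Over all pcRNAs 9288 of 10736 names were listed in Input and 9606 in H3K27me3-RADIP, against 102 and 104 of 107 members. Listing in 1 library was thus less frequent among members than over all pcRNAs.

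A further list of 50 chromatin regulator genes outside the name rule was set beside them, and 47 of its genes were listed. Of 39 with 50 pairs, 4 were called higher and 10 lower, beside 15.1% and 16.8% of all pcRNAs, with a median log2 ratio of -0.10. Mecom, Dot1l, Rcor1 and Mta1 were the 4 called higher. Rcor1, for a partner of LSD1, had 105 and 211 pairs, and Dot1l, an H3K79 methyltransferase gene, had 142 and 240. Hells, for a remodeler needed for DNA methylation, had 212 and 80 pairs, and Sirt1, a deacetylase gene, had 92 and 39. The X-linked remodeler gene Atrx had 769 and 473 pairs, with a log2 ratio of -0.73 and 38.4% GC. After GC centring 2 of the list were called higher and 6 lower, beside 11.5% and 12.8% of all pcRNAs.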

How the data were processed

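The authors mapped RNA and DNA tags to mm10 with BWA (0.7.15-r1140 in the submitters' processing notes), kept uniquely mapped pairs, assigned RNA tags by strand to GENCODE genes and DNA tags to 25-kb bins, and left out those whose DNA tag fell in a blacklisted region. The deposited values are q-values, adjusted p-values that the authors computed per RNA and bin combination with a modified negative binomial model, and pairs above 0.1 had been removed. The 8 libraries per condition were merged by the authors, so lines were counted as pairs. The tables' p-values were not used.

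Distances were taken between tag centres. The TMM steps of the paper's comparison, with trims of 30% and 5%, were coded here and tested on simulated data. Its test on counts was not run because the deposited tables hold no counts and no replicates. Ratio intervals are exact Clopper-Pearson, and shares have 95% Wilson intervals. Gene positions were read from GENCODE M21, of the same build but older than the M25 of the methods, and all 107 members matched by name, 102 of them also by versioned identifier. Python 3.11.15, numpy 2.4.6, pandas 2.3.3, scipy 1.17.1 and matplotlib 3.10.9 were used.

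Members, gene lists and tests were chosen with earlier results of these data known. Named genes were the 10 with most pairs, the 5 highest and 5 lowest ratios, the 5 longest and 5 shortest median distances in H3K27me3-RADIP, the 5 with most pairs among those in 1 library, those with trans pairs, the 5 with most pairs per kb, and examples of groups. Others were named after their values were seen. Some names that fit the stems are not reported here.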

Additional observations from a re-analysis of the deposited data

How the results depend on the processing

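Pairs with q at most 0.01 gave a share difference of -0.113 points, a median distance difference of 40.2 kb in place of 50.4 kb, and 69.2% of H3K27me3-RADIP combinations in both libraries. Distance to the gene edge gave 27.8 kb, since the Input median was then 0 kb. Without Kat6b it was 41.1 kb. With combinations of both libraries it was 26.0 kb, the difference in pairs over 100 kb was 6.86 points, and 4 members were called higher, 3 of them among the 8 reported. Equal weighting of 91 members gave 4.24 points. Without the 4 members with most pairs, added after seeing the data, the share difference was -0.135 points and the median difference 19.9 kb. Library totals called 5 higher and 23 lower. A log2 limit of 1 left 6 calls, 2 higher and 4 lower. GC centring, also added later, called 4 higher and 11 lower, of which 4 and 7 were among those reported. The cause of these shifts was not tested. Among 137 further values of the log2 ratio of 23 named genes, 110 stayed within the counting interval of the reported value, 27 left it, and 0 of those genes' calls changed sign. Of genes not called, several changed sign. Some of these stayed within their interval, such as Kat7 from 0.14 to -0.02 over combinations of both libraries. Setd1a did so as well, from 0.21 to -0.07 under GC centring. Others left it: over combinations of both libraries Kat6b turned from 0.14 to -0.08 and Arid5b from 0.08 to -0.07. Under GC centring Nsd1 turned from -0.01 to 0.19, Chd2 from -0.07 to 0.14 and Arid1b from 0.17 to -0.01, all outside their interval. No paired analysis was possible because the replicates were merged into 1 table per condition before deposit, so no replicate could be left out either. Counting limits the genes under 50 pairs.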

Other observations

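The members' genes were also places where other RNAs landed. DNA tags on their gene bodies numbered 20054 in Input and 16814 in H3K27me3-RADIP, and 13.2% and 14.5% of these were joined to RNA of other genes. Other RNAs were listed on 78 members' genes in Input and 79 in H3K27me3-RADIP. The RNA of Fto gave 131 and 96 pairs on Chd9, and that of Srpk2 gave 104 and 60 on Kmt2e. On Kmt2e, which was called lower as an RNA, all DNA tags fell from 176 to 76. On Prdm16, which was called higher, they went from 514 to 840, with 18 and 90 from other RNAs. On Hdac11, which had no listed RNA of its own in Input, there were 65 pairs of other RNAs in Input and 69 in H3K27me3-RADIP, with Iqsec1 giving 23 and 33. RNA of 1 member on the gene of another was listed for Smarcc1 on Setd2, with 6 pairs, and Smyd3 on Smyd2, with 9 pairs, both in H3K27me3-RADIP. No replicate error can be given for these values.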
